A study of Mus musculus with 12 samples.

Results

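The apolipoproteins are the protein components of the lipoprotein particles that carry lipids in blood. The members were fixed by name as 10 genes, Apoa1, Apoa2, Apoa4, Apoa5, Apob, Apoc1, Apoc3, Apoe, Apom and Apoh, out of 18820 genes measured by a probe set with 1 gene symbol. Together they had 11 of the 35556 probe sets on the array. Apoa4 had 2 and every other member had 1, and the brighter Apoa4 probe set was taken as the main one. Liver makes most circulating lipoproteins. Hepatocytes assemble triglyceride on apolipoprotein B into very-low-density particles, while apolipoproteins A-I and A-II are the main proteins of high-density particles. The small exchangeable apolipoproteins move between particles and set how fast lipases and receptors clear them.

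RNA came from whole liver and from primary hepatocytes (isolated parenchymal liver cells) of 6 male C57BL/6 mice aged 7 to 8 weeks on standard chow. WT mice carried a floxed Jnk1 gene (Jnk1f/f) with intact Jnk2 (Jnk2+/+), and JNKΔhepa mice lacked Jnk1 in hepatocytes and Jnk2 in every cell. The Cre recombinase that removes Jnk1 is driven by an albumin promoter with alpha-fetoprotein enhancer elements. In which other liver cells Jnk1 persists was not tested, and the loss of Jnk2 is not confined to hepatocytes. JNK1 and JNK2 are stress-activated kinases that phosphorylate the transcription factor c-Jun. The 4 groups, WT liver, JNKΔhepa liver, WT hepatocytes and JNKΔhepa hepatocytes, held 3 arrays each, and each of the 3 mice of a genotype was sampled for both tissues. The labels do not say whether the WT mice carried Cre.

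All values below are the deposited log2 values, and a difference is JNKΔhepa minus WT unless stated. Liver arrays had medians of 4.09 to 4.12 and hepatocyte arrays of 3.22 to 3.28, so the tissues appear to have been normalised separately. The highest value on any array was 13.41. Arrays of a group correlated at 0.9865 or more over all probe sets. Mapk9, which encodes JNK2, read 8.59 to 8.69 in WT liver and 2.33 to 3.02 in JNKΔhepa liver, and 7.74 to 8.10 against 2.29 to 2.62 in hepatocytes. Mapk8, which encodes JNK1, differed by far less: it read 6.37 to 6.40 in WT liver and 5.93 to 6.07 in JNKΔhepa liver (log2 difference −0.40, limma adjusted p = 0.02696), and 5.51 to 5.66 against 4.95 to 5.01 in hepatocytes (−0.61, adjusted p = 0.001831). Its JNKΔhepa hepatocyte readings lay above the array medians, and the sources used here do not say whether its probe set reads the floxed part, so it does not check the hepatocyte deletion. All 12 measured hepatocyte markers of 15 listed, among them Alb and Ttr, were bright in every group, with a mean level of 12.04 to 12.34 per array. In bulk RNA, fewer cells of a type and less RNA per cell cannot be told apart.

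Apoa4, a large exchangeable apolipoprotein of triglyceride-rich and high-density particles, was the member that differed most between the genotypes. In liver its WT arrays, replicates 1, 2 and 3, read 9.91, 9.60 and 9.95. The JNKΔhepa liver arrays read 11.42, 11.64 and 11.07, all above every WT array. Hepatocytes of WT mice gave 9.71, 9.35 and 9.37 and those of JNKΔhepa mice 11.03, 10.69 and 10.79, and again the genotypes did not overlap. JNKΔhepa replicate 2 was the highest liver array and the lowest JNKΔhepa hepatocyte array, so the order of the mice did not carry over between the tissues.

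Apoa4 rose 2.94-fold in JNKΔhepa liver (log2 difference 1.56, SE 0.156, 95% confidence interval 1.22 to 1.89, limma adjusted p = 0.000597, higher in 3 of 3 arrays). On the liver arrays alone with the replicate number as a block, the value was the same but missed the threshold (limma adjusted p = 0.0611). Replicates of the 2 genotypes share only a number. Without the block, the liver arrays alone passed (limma adjusted p = 0.00936). In hepatocytes Apoa4 rose 2.57-fold (log2 difference 1.36, SE 0.156, interval 1.02 to 1.70, limma adjusted p = 0.00108). The hepatocyte effect differed from the liver effect by −0.19 (SE 0.221, interval −0.67 to 0.29, limma adjusted p for the interaction 0.909), so a difference between the tissues was not shown at this number of mice. Of the means on the deposited scale, JNKΔhepa liver was highest at 11.37, followed by JNKΔhepa hepatocytes at 10.84, WT liver at 9.82 and WT hepatocytes at 9.47. The step from JNKΔhepa liver to JNKΔhepa hepatocytes passed as deposited (limma adjusted p = 0.00605), and that between the WT tissues did not (0.0531). The step between JNKΔhepa hepatocytes and WT liver crosses both genotype and tissue and was not tested.

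**Figure D1:**
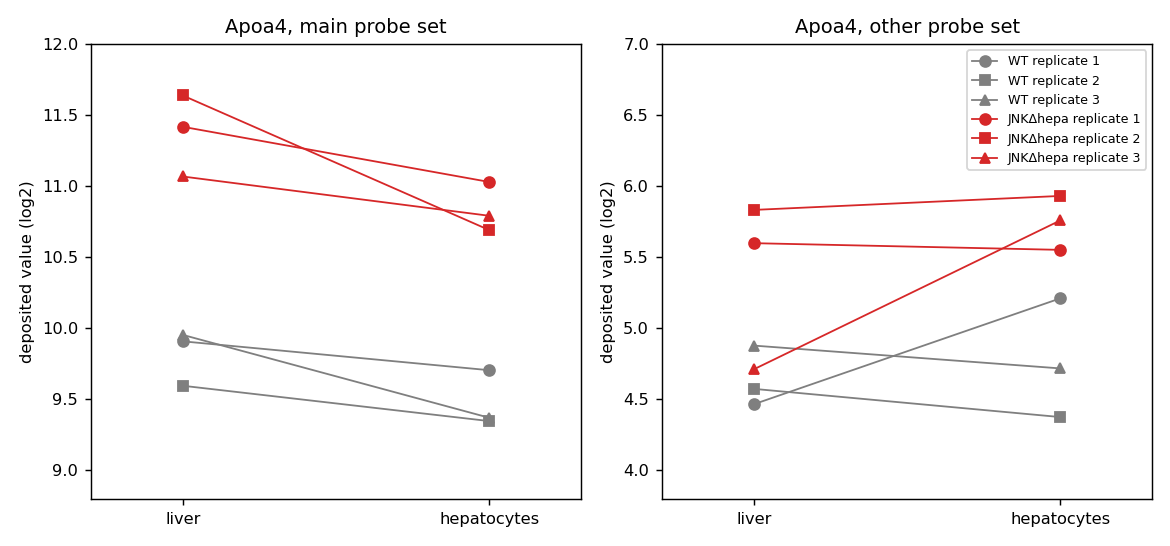
Deposited log2 value of Apoa4 in liver and in hepatocytes of each mouse, with a line joining the 2 tissues of 1 mouse, for the main probe set (left) and the other probe set (right), on axes of equal span. On the main probe set the 6 JNKΔhepa readings run from 10.69 to 11.64 and the 6 WT readings from 9.35 to 9.95; on the other probe set JNKΔhepa replicate 3 in liver lies among the WT readings.

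The other Apoa4 probe set was much dimmer and moved the same way by less. In WT liver it read 4.47, 4.57 and 4.88, and in JNKΔhepa liver 5.60, 5.83 and 4.71, so that JNKΔhepa replicate 3 lay inside the WT range. WT hepatocytes gave 5.21, 4.38 and 4.72 on it, and JNKΔhepa hepatocytes 5.55, 5.93 and 5.76, without overlap. The log2 differences were 0.74 in liver (SE 0.283) and 0.98 in hepatocytes (SE 0.283). Neither passed when all 35556 probe sets were tested together (limma adjusted p = 0.417 and 0.237), a test that the main probe set did pass (0.00234 and 0.00461). The sources used here do not say which part or strand of the gene either probe set reads.

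Apoa4 was the member past the threshold in each tissue, 1 of 10, where 0.925% of all genes passed in liver (0.558% upwards) and 0.84% in hepatocytes (0.367% upwards). The other 9 members did not pass in either tissue. Their log2 differences reached at most 0.264 in size in liver and 0.252 in hepatocytes. The 95% intervals of these 9 lay between 0.743-fold and 1.33-fold in liver and between 0.749-fold and 1.25-fold in hepatocytes. Each interval was taken for 1 gene alone, without adjustment for the number of genes. The median log2 difference of the 10 members was 0.0188 in liver, against 0.0155 over all genes, and 0.0483 in hepatocytes, against −0.0018.

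**Figure D2:**
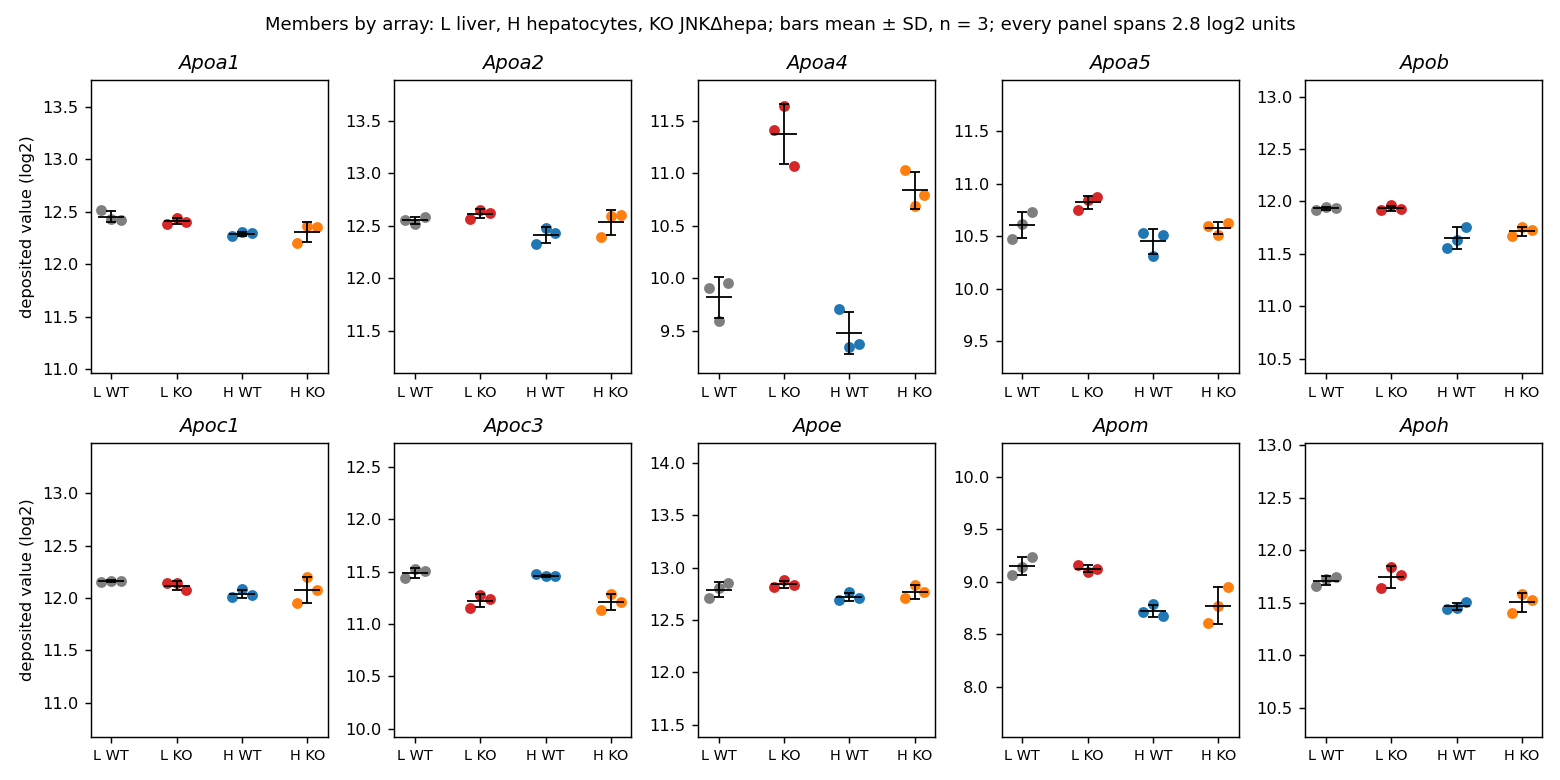
Deposited log2 value of each member on each of the 12 arrays (points), with the group mean and SD (bars, n = 3), and every panel spanning the same number of log2 units; L is liver, H hepatocytes and KO JNKΔhepa. Apoa4 shows the wide step between genotypes in both tissues. Smaller steps without overlap are seen for Apoc3 downwards in both tissues (−0.26 and −0.25). In liver they are also seen for Apoa5 upwards (0.22) and Apoc1 downwards (−0.0426). These smaller steps did not pass the threshold, and 20.4% of all genes in liver and 14.7% in hepatocytes did not overlap either.

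**Figure D3:**
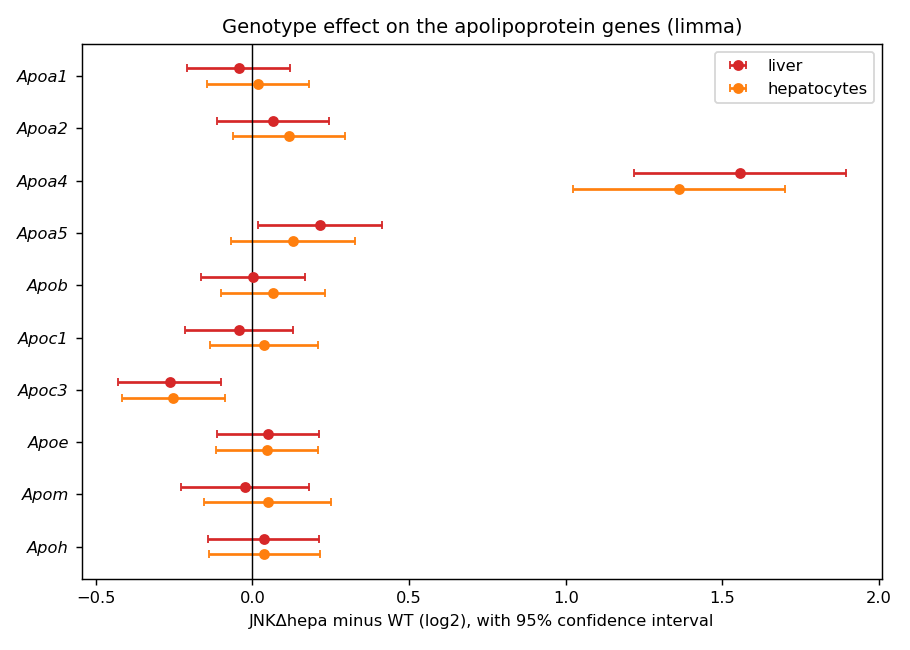
Log2 difference between JNKΔhepa and WT (points) with its 95% confidence interval (bars) for each member, in liver and in hepatocytes. The Apoa4 intervals, 1.22 to 1.89 and 1.02 to 1.70, stand apart from those of the other 9 members.

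Apoa4 lies in a gene cluster on chromosome 9 with Apoa1, Apoc3 and Apoa5, in the order Apoa1, Apoc3, Apoa4, Apoa5. These genes are known to share liver enhancer elements, and a promoter window was at hand for 3 of the 4. The 250 bases before an annotated start of each are shown because these neighbours differed in their response. They are RefSeq sequences of build GRCm38.p6, all on the plus strand, written 5′ to 3′, from chr9:46240594-46240843 for Apoa4, chr9:46228380-46228629 for Apoa1 and chr9:46268358-46268607 for Apoa5. Capitals mark matches to the motifs named after them.
Apoa4: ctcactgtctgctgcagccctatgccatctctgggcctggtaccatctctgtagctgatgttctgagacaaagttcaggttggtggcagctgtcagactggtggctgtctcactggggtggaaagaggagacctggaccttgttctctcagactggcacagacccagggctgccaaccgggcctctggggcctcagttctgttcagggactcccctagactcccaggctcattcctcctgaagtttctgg
Apoa1: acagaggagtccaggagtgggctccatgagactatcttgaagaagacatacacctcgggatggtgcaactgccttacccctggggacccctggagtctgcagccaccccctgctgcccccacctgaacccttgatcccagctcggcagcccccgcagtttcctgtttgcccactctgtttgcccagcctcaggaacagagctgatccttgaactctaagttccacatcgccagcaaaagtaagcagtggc
Apoa5: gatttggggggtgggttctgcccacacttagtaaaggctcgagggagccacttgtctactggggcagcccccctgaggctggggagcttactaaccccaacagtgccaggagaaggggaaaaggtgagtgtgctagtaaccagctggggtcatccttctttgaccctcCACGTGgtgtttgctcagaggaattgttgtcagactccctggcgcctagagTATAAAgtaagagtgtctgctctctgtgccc

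The letters searched on both strands were AGGTCA (a nuclear receptor core motif), AAAGTCC (part of the HNF4 site), TGANTCA (AP-1, the factor that holds c-Jun), TGACGT (part of the cyclic AMP response element), CACGTG (E-box), TATAAA and CCAAT. The Apoa5 window held CACGTG from 82 to 77 bases before the start and TATAAA from 31 to 26 bases before it, and these did not overlap. Apoa5 had 2 annotated starts, and the window shown precedes the upstream one. Counted from the other start, the same matches lay 107 to 102 and 56 to 51 bases before it. The Apoa4 and Apoa1 windows held a match to none of the 7 motifs. Among 32851 windows of the same length, AGGTCA occurred in 14.02%, AAAGTCC in 3.58%, TGANTCA in 6.75%, TGACGT in 6.47%, CACGTG in 6.02%, TATAAA in 12.37% and CCAAT in 33.85%. A match is a description of the letters, and a missing one says only that these letters are not in the window.

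Apoc3, whose protein slows the lipolysis and uptake of triglyceride-rich particles, read lower in JNKΔhepa, beside its higher neighbour Apoa4. WT livers gave 11.44, 11.52 and 11.51, and JNKΔhepa livers 11.15, 11.28 and 11.24. WT hepatocytes gave 11.47, 11.46 and 11.46, and JNKΔhepa hepatocytes 11.13, 11.29 and 11.21. Every JNKΔhepa array was below every WT array of its tissue, and this is a step of 1.2-fold in liver and 1.19-fold in hepatocytes. Neither passed over all genes (log2 difference −0.26, SE 0.0759, limma adjusted p = 0.139 in liver; −0.25, SE 0.0759, adjusted p = 0.168 in hepatocytes). With a variance prior that follows the mean level and is robust to outlying genes, the liver value passed (limma adjusted p = 0.044). Averaging the 2 tissues of each mouse, a test added after the values were seen, gave −0.26 (SE 0.0655, limma adjusted p = 0.106), where 1.59% of genes passed.

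Apoa5, which promotes lipolysis of triglyceride by lipoprotein lipase, read 10.48, 10.61 and 10.73 in WT liver and 10.75, 10.84 and 10.87 in JNKΔhepa liver. The liver arrays did not overlap, but the gap between the closest arrays was small, and the difference did not pass (log2 difference 0.22, SE 0.0915, limma adjusted p = 0.35). In hepatocytes the arrays overlapped, at 10.53, 10.31 and 10.51 in WT and 10.60, 10.52 and 10.63 in JNKΔhepa (0.13, limma adjusted p = 0.637). Apoa1, the main protein of high-density particles and the activator of the enzyme LCAT, overlapped between the genotypes in both tissues. It read 12.52, 12.43 and 12.42 in WT liver and 12.39, 12.44 and 12.40 in JNKΔhepa liver, a difference of −0.0441 (interval −0.21 to 0.12). WT hepatocytes gave 12.27, 12.31 and 12.30, and JNKΔhepa hepatocytes 12.20, 12.37 and 12.35, a difference of 0.0177 (interval −0.15 to 0.18).

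The genes beside the cluster were examined in the same fits. Of the 3 named genes on each side, Sidt2, Pafah1b2, Sik3, Zpr1, Bud13 and Cadm1, 0 passed limma's test in either tissue (adjusted p from 0.0791 to 0.995). Sidt2 had log2 differences of 0.36 in liver and 0.42 in hepatocytes, and Sik3, a kinase gene next to Apoa1, of −0.38 and −0.29. Farther out more genes passed than elsewhere, a stretch chosen after the values were seen and therefore given without a test. Among the 100 measured genes nearest the cluster, 50 on each side, 7 passed in liver (7%), 4 higher and 3 lower, where 0.904% of the other 996 chromosome 9 genes measured and 0.925% of all genes passed. In hepatocytes 6 of these 100 passed (6%), 1 higher and 5 lower, against 1% of those 996 and 0.84% of all genes. The widest was Nnmt, which methylates nicotinamide, 12 measured genes from Apoa4, with log2 differences of −3.56 in liver (limma adjusted p = 0.00945) and −2.87 in hepatocytes (0.029). Nxpe2, 7 measured genes from Apoa4, fell too (−0.58, adjusted p = 0.0412, and −1.34, adjusted p = 0.00018). The Nnmt call in hepatocytes was lost without any of WT replicates 1, 2 and 3 (0.108, 0.0572 and 0.0581) or JNKΔhepa replicates 2 and 3 (0.132 and 0.116). With the trended, robust prior Nnmt passed in neither tissue (limma adjusted p = 0.0534 in liver and 0.112 in hepatocytes). The Nxpe2 call in liver was lost without any 1 liver array (adjusted p = 0.135, 0.105 and 0.0874 for WT replicates 1, 2 and 3, and 0.0577, 0.0837 and 0.131 for JNKΔhepa). The cytokine gene Il18, 27 measured genes away, rose by 0.84 in liver (adjusted p = 0.00383) and 1.08 in hepatocytes (adjusted p = 0.000597).

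**Figure D4:**
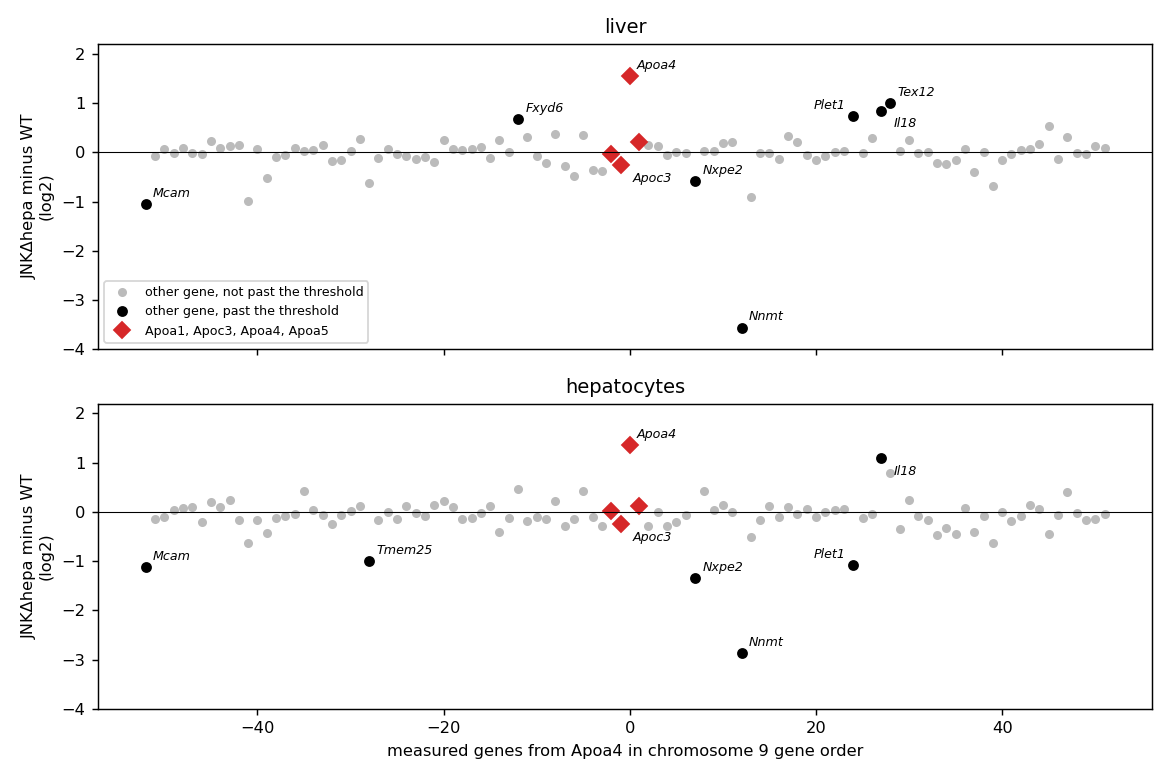
Log2 difference between JNKΔhepa and WT in liver (top) and hepatocytes (bottom) for the 50 measured genes on each side of the chromosome 9 apolipoprotein cluster, placed by their order from Apoa4. Apoa4 at 1.56 and 1.36 stands above its neighbours, which lie between −0.38 and 0.42 for the 3 genes on each side of the cluster, while genes past the threshold in both directions, such as Nnmt at −3.56 and −2.87, are scattered farther out.

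Apob, the structural protein of very-low-density and low-density particles, had the smallest genotype difference of the 10 members in liver. WT livers gave 11.92, 11.94 and 11.94, and JNKΔhepa livers 11.92, 11.96 and 11.93, a difference of 0.0016 (interval −0.16 to 0.17). WT hepatocytes gave 11.56, 11.63 and 11.76, and JNKΔhepa hepatocytes 11.67, 11.75 and 11.73, a difference of 0.0661 (interval −0.0987 to 0.23). Apoa2, the second protein of high-density particles, differed by 0.0652 in liver and 0.12 in hepatocytes. Its arrays overlapped between the genotypes in both tissues and ran from 12.33 to 12.65 over all groups.

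Apoe, the ligand by which remnant particles bind their receptors, is made by macrophages as well as hepatocytes. It read 12.71, 12.81 and 12.85 in WT liver and 12.81, 12.88 and 12.83 in JNKΔhepa liver (difference 0.0502, interval −0.11 to 0.21). WT hepatocytes gave 12.69, 12.76 and 12.71, and JNKΔhepa hepatocytes 12.71, 12.84 and 12.76 (0.0474, interval −0.12 to 0.21). The mean level of the 15 Kupffer cell and macrophage markers, all measured, was 7.62 to 8.20 on the WT liver arrays and 7.75 to 7.91 on the JNKΔhepa ones. It was 5.74 to 6.39 on the WT hepatocyte arrays and 5.30 to 5.79 on the JNKΔhepa ones. In hepatocytes 2 of the 15 markers fell past the threshold, and the 15 had a median log2 difference of −0.749. For the 14 sinusoidal endothelial markers these ranges were 6.51 to 6.87 and 6.10 to 6.52, with 0 past limma's threshold and a median log2 difference of −0.545. Of 14 measured stellate cell markers 2 fell past the threshold in hepatocytes (median log2 difference −0.262), with a mean level of 4.48 to 4.68 in WT and 4.15 to 4.46 in JNKΔhepa. The part of these cells in the hepatocyte results was not tested. The hepatocyte markers had a median log2 difference of 0.0317 in hepatocytes, with 0 of 12 past the threshold. In liver the macrophage markers differed by a median of −0.0712, and 0 of 15 passed. Of 9 measured cholangiocyte markers 2 rose past the threshold in liver, where 0.558% of all genes did. The mean level of the 9 was 3.51 to 3.61 in WT liver and 3.59 to 3.77 in JNKΔhepa liver. Their median log2 difference in liver was 0.0249. In each liver group 7 of the 9 read below the array median on every array. Their part in the liver results was not tested.

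Apoc1, an inhibitor of lipoprotein uptake that lies next to Apoe on chromosome 7, had liver arrays that did not overlap although the step was small. WT livers gave 12.15, 12.17 and 12.17, and JNKΔhepa livers 12.14, 12.14 and 12.07, a difference of −0.0426 (SE 0.0794, limma adjusted p = 0.898). In hepatocytes the arrays overlapped, with 12.01 to 12.08 in WT and 11.96 to 12.20 in JNKΔhepa. Non-overlap was common in liver: it held for 4 of 10 members (Apoa4 and Apoa5 upwards, Apoc1 and Apoc3 downwards) and for 20.4% of all genes (12.9% upwards and 7.57% downwards). In hepatocytes it held for 2 of 10 members, Apoa4 and Apoc3, and for 14.7% of all genes (7.36% upwards and 7.32% downwards).

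Apom, a lipocalin of high-density particles that carries sphingosine-1-phosphate, read 9.07, 9.14 and 9.24 in WT liver and 9.16, 9.10 and 9.12 in JNKΔhepa liver (difference −0.0234, interval −0.23 to 0.18). In hepatocytes its JNKΔhepa arrays were the more spread, at 8.61, 8.77 and 8.95, against 8.72, 8.79 and 8.67 in WT (0.0492, interval −0.15 to 0.25). Apoh, also known as beta-2-glycoprotein I, binds phospholipid and takes part in coagulation control. It ran from 11.66 to 11.74 in WT liver and from 11.64 to 11.84 in JNKΔhepa liver, and from 11.44 to 11.50 and 11.40 to 11.59 in hepatocytes. Its differences were 0.036 and 0.0384, with the genotypes overlapping in both tissues.

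The genotype effect did not differ between the tissues past the threshold for any of the 10 members, where 0.0106% of all genes passed the interaction test in limma (2 genes). At an unadjusted p under 0.05 the interaction held for 1359 of 18820 genes, and the smallest unadjusted p among the members was 0.4, for Apoa4. The interaction values of the members lay between −0.19 for Apoa4 and 0.0804 for Apoc1.

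Hepatocytes and liver were compared within each genotype. On the deposited values all 10 members read lower in hepatocytes in both genotypes, with a median log2 difference of −0.16 in WT and −0.161 in JNKΔhepa. Nearly the whole array did so, since the median over all genes was −0.576 and −0.596, and 86.2% and 86.5% of genes passed (85.6% and 85.9% lower in hepatocytes). Differences above 0, with no test, were read for 3.01% of genes in WT and 3.11% in JNKΔhepa. On this scale the members were less lowered than the median gene, and so were the hepatocyte markers (median −0.158 in WT and −0.0948 in JNKΔhepa). In WT, Apob (−0.28), Apom (−0.42) and Apoh (−0.25) passed, and in JNKΔhepa Apoa4 (−0.54), Apoa5 (−0.24), Apob (−0.22), Apom (−0.35) and Apoh (−0.24) did. With the mouse as a block, since both tissues came from the same animals, Apoa4 passed in WT too (−0.35, limma adjusted p = 0.0402), and every other call was as before. The calls in JNKΔhepa depended on single arrays. Without liver replicate 2, Apoa5 (adjusted p = 0.0606) and Apoh (0.0624) no longer passed, and without hepatocyte replicate 1, Apob (0.0514) and Apoh (0.0581) did not. Apoa5 also missed the threshold without liver replicate 3 (0.0747) or hepatocyte replicate 2 (0.0782).

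Quantile normalisation of all 12 arrays together moved the median of all genes to 0.0155 in WT and 0.0137 in JNKΔhepa. The median of the 10 members was then 0.0395 in WT and −0.0225 in JNKΔhepa, so they were no longer set apart in 1 direction. On that scale Apoc3 was higher in hepatocytes in both genotypes, by 0.26 in WT (limma adjusted p = 0.0167) and 0.26 in JNKΔhepa (adjusted p = 0.016), and the other 9 members did not pass. The background of that test was 28.4% of genes in WT and 29.9% in JNKΔhepa. Of the 10 members lower in hepatocytes as deposited, 6 read higher in WT and 4 in JNKΔhepa after joint normalisation. The same held for 50.7% and 50.5% of all genes lower as deposited, so the members' counts show nothing particular to them. The calls for Apoa4, Apoa5, Apob, Apom and Apoh in hepatocytes were not made on the joint scale. The genotype effect on Apoa4 was 1.66 in liver and 1.27 in hepatocytes on the joint scale, so it passed on either (limma adjusted p = 0.000447 and 0.0028, where 0.818% and 0.802% of genes passed). Markers were compared on the deposited values alone, where the median of all genes was −0.576 in WT and −0.596 in JNKΔhepa. Hepatocytes minus liver, the median log2 difference of Kupffer cell markers was −1.84 in WT and −2.47 in JNKΔhepa. That of hepatocyte markers was −0.158 and −0.0948.

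**Figure D5:**
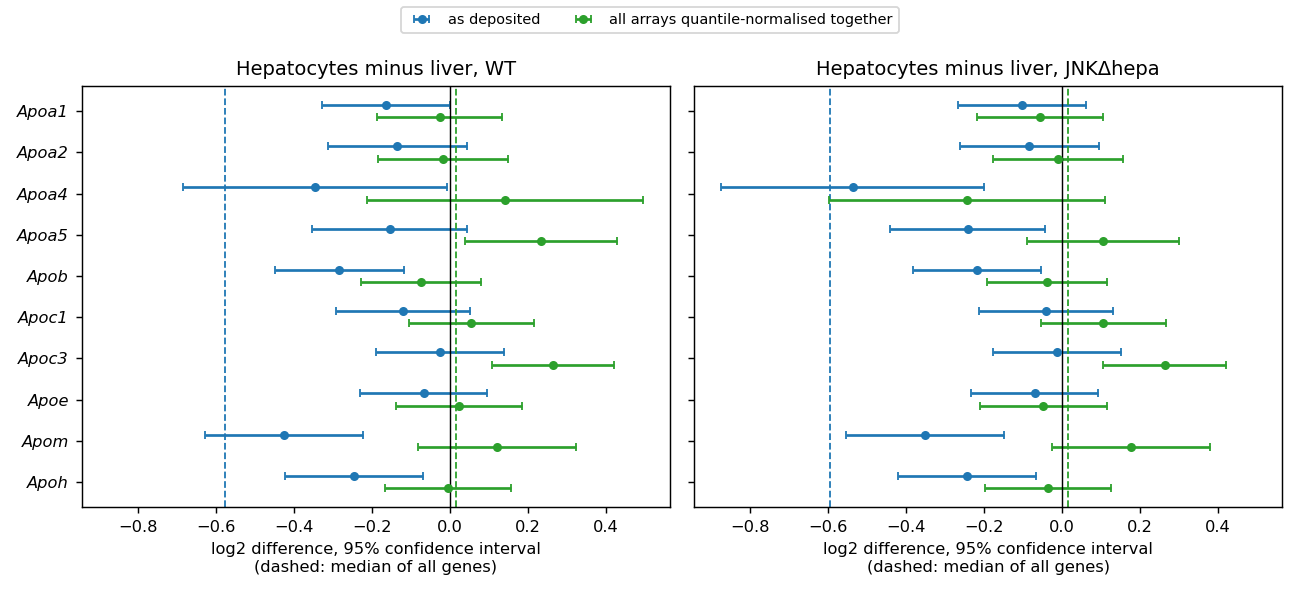
Hepatocyte minus liver log2 difference of each member (points) with its 95% confidence interval (bars) in WT (left) and JNKΔhepa (right), on the deposited values and after quantile normalisation of all arrays together; dashed lines mark the median of all genes on each scale. The deposited values lie below 0 and to the right of the all-gene median of −0.576 or −0.596, and the jointly normalised ones lie around 0, apart from Apoc3 at 0.26.

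Genes that act with the apolipoproteins were counted in 7 lists, which held 98 measured genes. In liver 5 of them passed (5.1%), 4 higher and 1 lower, where 0.925% of all genes did, and in hepatocytes 4 (4.08%), 2 higher and 2 lower, where 0.84% did. The lists were chosen with earlier results known, so these shares carry no test. Among 13 measured other apolipoproteins of 19 listed, 0 passed in either tissue (median log2 difference 0.00302 in liver and 0.0172 in hepatocytes). The nearest to it in liver was Apoc2, the cofactor of lipoprotein lipase, at 10.73, 10.66 and 10.93 in WT and 11.03, 11.20 and 11.08 in JNKΔhepa (0.33, SE 0.103, limma adjusted p = 0.188). In hepatocytes it was Apoc4, at 10.85, 11.06 and 10.98 in WT and 10.51, 10.82 and 10.62 in JNKΔhepa (−0.31, SE 0.0961, limma adjusted p = 0.177). Apoc2 and Apoc4 lie beside Apoc1 and Apoe on chromosome 7.

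Of 20 measured genes of lipoprotein assembly and apolipoprotein B editing, 1 rose in liver and 0 passed in hepatocytes. The gene was Plin2, which coats lipid droplets (liver 10.40, 10.61 and 10.56 in WT and 11.14, 10.95 and 11.19 in JNKΔhepa; 0.57, SE 0.0958, limma adjusted p = 0.0129). That call was lost without WT replicate 1 (adjusted p = 0.0717), JNKΔhepa replicate 1 (0.0681) or JNKΔhepa replicate 3 (0.0667). The genotype by tissue interaction of Plin2 did not pass (−0.53, limma adjusted p = 0.398). Mttp, which loads lipid onto apolipoprotein B, had log2 differences of −0.11 in liver and −0.0786 in hepatocytes and did not pass.

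Of 10 measured genes of high-density particle formation, 1 passed in liver. Scarb1, the receptor for selective cholesterol uptake from these particles, read 9.95, 9.81 and 9.91 in WT liver and 10.40, 10.42 and 10.24 in JNKΔhepa liver, at the edge of the threshold (0.46, SE 0.0985, limma adjusted p = 0.04995). It did not pass without any 1 of the 6 liver arrays (adjusted p = 0.121, 0.16 and 0.0834 for WT replicates 1, 2 and 3, and 0.171, 0.167 and 0.074 for JNKΔhepa). WT hepatocytes gave 9.05, 8.98 and 9.18, and JNKΔhepa hepatocytes 9.40, 9.40 and 9.67, without passing (0.42, adjusted p = 0.0706). Of 7 measured lipolysis genes 0 passed in either tissue, the smallest p being that of Angptl4, an inhibitor of lipoprotein lipase, in liver (0.84, SE 0.233, limma adjusted p = 0.128) and of Gpihbp1, the endothelial anchor of that enzyme, in hepatocytes (−0.56, SE 0.147, adjusted p = 0.108).

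Of 19 measured uptake genes, Sorl1, a sorting receptor of the low-density lipoprotein receptor family, rose in both tissues. It read 4.09, 4.39 and 4.25 in WT liver and 5.87, 5.97 and 5.29 in JNKΔhepa liver (1.46, SE 0.16, limma adjusted p = 0.000884). WT hepatocytes gave 2.98, 3.11 and 2.97, and JNKΔhepa hepatocytes 4.08, 4.46 and 4.35 (1.27, SE 0.16, adjusted p = 0.00182). All WT hepatocyte readings lay below the median of their arrays. Sorl1 is a chromosome 9 gene like Apoa4, with 63 measured genes between it and the cluster. Of these, 2 passed in liver (3.17%, 1 higher and 1 lower), where 0.925% of all genes did. In hepatocytes 2 passed (3.17%, both lower), where 0.84% of all genes did. All of these calls were already counted among the 100 measured genes nearest the cluster.

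Of 28 measured regulators, Jun fell in both tissues and Ppargc1a, a coactivator of nuclear receptors, in hepatocytes. Jun read 6.38, 6.79 and 6.45 in WT liver and 5.79, 5.75 and 5.86 in JNKΔhepa liver (−0.74, limma adjusted p = 0.0264). It read 8.74, 8.37 and 8.86 in WT hepatocytes and 7.98, 7.66 and 7.81 in JNKΔhepa hepatocytes (−0.84, adjusted p = 0.0135). Ppargc1a read 7.46, 7.16 and 7.57 in WT hepatocytes and 6.45, 6.23 and 6.47 in JNKΔhepa hepatocytes (−1.01, adjusted p = 0.00919). It differed by 0.0128 in liver, and its genotype by tissue interaction did not pass (−1.02, limma adjusted p = 0.358). The Jun call in liver was lost without WT replicate 2 (adjusted p = 0.103) or any of JNKΔhepa replicates 1, 2 and 3 (0.0944, 0.0931 and 0.0686). In hepatocytes it was lost without any of WT replicates 1 and 3 (0.0704 and 0.0614) or JNKΔhepa replicates 2 and 3 (0.0706 and 0.061). That of Ppargc1a was lost without WT replicate 3 (0.0518) or JNKΔhepa replicate 2 (0.0564). Of the regulators that did not pass, Hnf4a differed by 0.0619 in liver and 0.31 in hepatocytes, Ppara by 0.28 and 0.21, and Creb3l3, which encodes the liver factor CREBH, by 0.11 and 0.0318. These were named after their values were seen.

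Among 4 genes outside the members that are known targets of CREBH (Apoc2, Fgf21, Cidec and Hamp), the hormone gene Fgf21 rose in both tissues. It read 3.53, 3.59 and 3.82 in WT liver and 4.15, 4.30 and 4.80 in JNKΔhepa liver (0.77, limma adjusted p = 0.0373), dim in WT. WT hepatocytes gave 3.99, 3.74 and 3.85, and JNKΔhepa hepatocytes 4.58, 4.92 and 4.61 (0.85, adjusted p = 0.0233). The liver call was lost when any of WT replicates 1 and 2 (adjusted p = 0.149 and 0.118) or JNKΔhepa replicates 2 and 3 (0.0774 and 0.102) was left out. The hepatocyte call was lost when any of WT replicates 1 and 3 (0.06 and 0.0866) or JNKΔhepa replicates 2 and 3 (0.112 and 0.068) was.

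The genes whose 12 array values, each taken from the WT mean of its tissue, lay closest to those of Apoa4 were Naip2, Sorl1 and Cox6b2. Their root mean square distances from Apoa4 were 0.202, 0.239 and 0.381 log2 units over the 12 arrays. Naip2, an inflammasome receptor gene on chromosome 13, differed by 1.41 in liver and 1.42 in hepatocytes. Cox6b2, a cytochrome c oxidase subunit gene on chromosome 7, differed by 1.49 and 1.92. Likeness here is a closeness of the array values and describes these 12 arrays.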

How the data were processed

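RNA of 12 samples was measured on 1-colour mouse arrays. The log2 values deposited were made by the authors with RMA, per the submitters' processing notes, which give no version; the log base was taken from the range of the values, and no source used here gives the probe-set definition or genome build. Gene symbols came from the platform annotation: 21218 probe sets had 1 symbol, 1881 several and 12457 none, and the brightest probe set stood for a gene. Of the 18820 genes, 18790 were found in the RefSeq gene table by Entrez number.

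Differences were fitted with limma 3.58.1 in R 4.3.3 (lmFit and eBayes, group means over all 12 arrays, two-sided). They were called at a Benjamini-Hochberg adjusted p under 0.05 over all genes, after a check on simulated data. The number of arrays, 3 a group, limits the precision. Mouse numbers in the labels tie each liver sample to the hepatocyte sample of the same animal; the deviations of such pairs from their group means correlated at −0.0133 to 0.0982. WT and JNKΔhepa samples with the same number are different mice. Alternatives were other probe sets, filters, priors, weights, normalisation, blocks and the omission of single arrays; the mean of both tissues per mouse was added after the values were seen. Named genes were the members, up to 4 genes past the threshold or else that with the smallest p in each list, the 3 neighbours on each side and the 3 nearest profiles. The wider chromosome 9 stretch and the regulators and enzymes named without a call were chosen after values were seen. The members and lists were chosen with earlier results of these data known.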

Additional observations from a re-analysis of the deposited data

How the results depend on the processing

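The rise of Apoa4 kept its direction under every alternative run. It kept its call too, except in liver with the replicate number as a block and, in both tissues, on the other probe set. Without single arrays it was 1.42 to 1.71 in liver and 1.27 to 1.48 in hepatocytes. With the replicate number as a block, 0 members and 29 genes passed in liver (174 without) and 80 genes in hepatocytes (158 without); same-numbered WT and JNKΔhepa arrays correlated at −0.12 to 0.112 in their deviations, and no pairing is stated for them. The mouse as a block changed no other call of a member than that of Apoa4 between the WT tissues.

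Counts of genes moved more. Testing all probe sets gave 95, 84 and 1 for liver, hepatocytes and the interaction, and array weights 408 in liver and 4 for the interaction. Each tissue's own arrays alone gave 77 in hepatocytes. Leaving out 1 array gave 80 to 208 genes in liver, 61 to 387 in hepatocytes and 1 to 7 for the interaction, and leaving out 1 mouse 81 to 274 for the mean of both tissues. Between the tissues, leaving out dim genes gave 9617 in WT and 9773 in JNKΔhepa, and joint quantile normalisation 5336 and 5619. Members called were 2 in liver and 5 between the WT tissues with the trended, robust prior, 1 between the tissues of either genotype after joint normalisation, and 3 to 5 between the JNKΔhepa tissues without single arrays.

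Signs that turned were those of differences near 0 or between tissues, and that of the Apoa4 interaction on the other probe set. The cause was not tested. After joint normalisation Apoa1 read 0.0037 and Apob −0.016 in liver, and Apoa1 −0.0268 and Apoe −0.0108 in hepatocytes. The interaction was then −0.0305 for Apoa1, −0.0011 for Apoc3 and −0.031 for Apoh. Hepatocytes minus liver in WT was then 0.142 for Apoa4, 0.2347 for Apoa5, 0.0549 for Apoc1, 0.2637 for Apoc3, 0.0241 for Apoe and 0.1215 for Apom. In JNKΔhepa it was 0.1037 for Apoa5, 0.1051 for Apoc1, 0.2626 for Apoc3 and 0.1768 for Apom. Array weights gave an interaction of 0.006 for Apoe and a JNKΔhepa tissue difference of 0.0125 for Apoc3. The other Apoa4 probe set gave 0.2378 for the interaction and 0.1287 and 0.3665 between the WT and JNKΔhepa tissues.

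Without single arrays, genotype differences crossed 0 in liver for Apob (−0.0121 to 0.0104), Apoh (−0.0107 to 0.0916) and Apom (−0.0648 to 0.0219). In hepatocytes they did for Apoa1 (−0.0123 to 0.0703), Apoc1 (−0.0223 to 0.0989), Apoh (−0.0023 to 0.0888) and Apom (−0.039 to 0.1333). The interaction did for Apoc3 (−0.0268 to 0.0526), Apoe (−0.0366 to 0.0361), Apoh (−0.0532 to 0.0528) and Apom (−0.0157 to 0.1566), and the JNKΔhepa tissue difference for Apoc1 (−0.1007 to 0.0206) and Apoc3 (−0.0525 to 0.027).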
